A study of Mus musculus with 7 samples.

Results

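Accessibility was examined at 43 imprinted genes and their neighbours, which have 69 curated RefSeq transcription start sites (TSSs) and form 20 clusters on 10 chromosomes. ATAC-seq marks open chromatin, since the Tn5 transposase inserts adapters where DNA is accessible. Of the 75880 accessible sites listed, 132 had a midpoint within 20 kb of a TSS of these genes, 49 of them within 1 kb (promoter sites) and 83 farther away (flank sites). Each of the 43 genes had at least 1 site within 20 kb of a TSS, and 38 had a promoter site. Nnat, Meg3, Rtl1, Rian and Mirg had none. At the outer edge, the 3 farthest sites taken, near Cdkn1c, Mkrn3 and Inpp5f, differed by -0.32, -0.40 and -0.67 on the log2 scale between the genotypes, and the first 3 beyond it, near Kcnq1, Ppp1r9a and Mcts2, by -0.43, -0.01 and 0.48.

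Genomic imprinting restricts expression of a gene to the allele inherited from one parent. It rests on DNA methylation that is laid down in the egg or the sperm at germline differentially methylated regions, is protected after fertilisation by Zfp57 and Trim28, and silences the promoter on the marked allele while the other allele stays open. Imprinted genes lie in clusters, in which a long non-coding RNA such as Kcnq1ot1 or Airn, or an insulator bound by CTCF such as that of H19, acts on the neighbours, and many of them regulate fetal and placental growth.

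The series compared WT and Smad2/3 DKO EpiLCs, the epiblast-like cells that naive ESCs form after 48 h on fibronectin in N2B27 with 12 ng/ml Fgf2, 20 ng/ml activin A and 1% KSR. All lines were XY, of strain 129/Sv//Ev, and kept without feeder cells. WT was clone CCE and DKO was clone KT15.1F6, made from a Smad2 tm1Rob/tm1Rob line by Cas9 nickase deletion at the Smad3 promoter and first exon, and each genotype was represented by 3 differentiations of 1 clone, so that clone and genotype cannot be told apart. The seventh library was 100 ng of WT genomic DNA treated with Tn5. The deposited table holds 1 concentration per genotype and site, the authors' log2 mean of normalized reads, and no value per library, so the spread between differentiations is unknown and no difference below was tested. Read depth is likewise unknown. A difference is the DKO concentration minus the WT concentration, and it is counted where it exceeds 1.5-fold, 0.585 on the log2 scale. Reads were not separated by parental allele, and in bulk libraries more open cells and a more open site in each cell cannot be told apart.

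The labels were checked at the targeted genes. The Smad3 promoter site had an authors' mean concentration of 5.42 in WT and the lowest value listed, -0.10, in DKO, and the Smad2 promoter site had 8.35 and 8.28, which does not show whether the coding sequence is disrupted. Of 6 epiblast genes, 5 (Pou5f1, Sox2, Pou3f1, Fgf5 and Dnmt3b) had a promoter site, and none of the sites passed 1.5-fold, while 12 of their 28 flank sites (42.9%) were lower in DKO and none higher, against 16.1% and 9.76% of all flank sites. Naive genes had 7 promoter sites, none past 1.5-fold, with median concentrations of 7.16 in WT and 7.23 in DKO, and 3 of their 11 flank sites (27.3%) were higher and 1 (9.09%) lower. Primitive endoderm genes had 6 promoter and 11 flank sites, none past 1.5-fold. Of 6 promoter sites at fibroblast genes, 2 (33.3%) were lower in DKO (Dcn by -1.25 and Thy1 by -0.78) and 1 (16.7%) was higher (Twist2, 0.60). Of 6 at trophoblast genes, 2 (33.3%) were lower and none higher. Over all promoter sites, 4.17% were lower and 3.69% higher. Of 19 flank sites at trophoblast genes, 2 (10.5%) were lower and none higher, and none of 3 at fibroblast genes passed 1.5-fold. The part of these differences in the results below was not tested.

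Sequence around the start site is shown for 6 genes whose promoters lie in or beside a methylation mark. The sites at these starts of Mest, Zdbf2 and Zrsr1 were past 1.5-fold and higher in DKO, that of Kcnq1ot1 was just below it, and those of Snrpn and Nap1l5 were near 0. Peg13, which had the largest increase, and the starts with sites past 1.5-fold and lower are not among them. Each window runs from 250 bases before to 50 bases after the start, on the strand of the gene (RefSeq, GRCm38.p6), and capitals mark TGCCGC or its reverse complement GCGGCA, the string that Zfp57 binds when its CpG is methylated. The windows are chr6:30737800-30738099 (+), chr1:63200108-63200407 (+), chr11:22971755-22972054 (+), chr7:143296498-143296797 (-), chr7:60005150-60005449 (-) and chr6:58907077-58907376 (-).
Mest: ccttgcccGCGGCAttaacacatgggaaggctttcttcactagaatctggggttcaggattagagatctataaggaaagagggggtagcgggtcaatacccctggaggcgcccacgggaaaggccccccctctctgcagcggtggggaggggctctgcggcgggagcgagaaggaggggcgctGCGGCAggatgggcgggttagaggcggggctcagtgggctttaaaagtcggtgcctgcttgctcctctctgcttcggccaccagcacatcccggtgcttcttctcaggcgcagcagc
Zdbf2: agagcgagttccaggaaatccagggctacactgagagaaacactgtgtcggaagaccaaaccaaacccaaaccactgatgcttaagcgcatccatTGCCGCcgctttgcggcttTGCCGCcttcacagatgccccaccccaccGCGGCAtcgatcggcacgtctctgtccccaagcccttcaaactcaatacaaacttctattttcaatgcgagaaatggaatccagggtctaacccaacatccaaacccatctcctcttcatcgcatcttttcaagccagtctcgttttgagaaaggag
Zrsr1: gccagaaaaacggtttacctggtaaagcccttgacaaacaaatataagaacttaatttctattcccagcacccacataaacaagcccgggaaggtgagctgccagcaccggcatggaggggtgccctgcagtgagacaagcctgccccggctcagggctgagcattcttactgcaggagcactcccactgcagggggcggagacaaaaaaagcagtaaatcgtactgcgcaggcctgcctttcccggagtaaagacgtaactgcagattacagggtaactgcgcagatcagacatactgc
Kcnq1ot1: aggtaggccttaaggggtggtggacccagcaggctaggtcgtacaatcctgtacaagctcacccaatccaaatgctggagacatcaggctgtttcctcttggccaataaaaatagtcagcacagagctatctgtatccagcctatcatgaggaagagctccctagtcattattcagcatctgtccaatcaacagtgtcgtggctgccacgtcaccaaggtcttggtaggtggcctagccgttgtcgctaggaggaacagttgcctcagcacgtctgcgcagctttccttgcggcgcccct
Snrpn: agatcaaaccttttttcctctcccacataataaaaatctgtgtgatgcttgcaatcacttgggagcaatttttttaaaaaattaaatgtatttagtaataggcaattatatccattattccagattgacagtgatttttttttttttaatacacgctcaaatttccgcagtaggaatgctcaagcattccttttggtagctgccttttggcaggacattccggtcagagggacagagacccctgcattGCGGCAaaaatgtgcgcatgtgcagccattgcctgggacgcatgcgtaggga
Nap1l5: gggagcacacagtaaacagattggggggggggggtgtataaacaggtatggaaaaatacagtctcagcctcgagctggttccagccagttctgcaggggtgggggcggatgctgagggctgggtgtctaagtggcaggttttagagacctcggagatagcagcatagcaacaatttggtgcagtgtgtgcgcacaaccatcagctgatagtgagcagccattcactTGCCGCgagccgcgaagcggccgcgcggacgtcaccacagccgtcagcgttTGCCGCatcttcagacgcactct
The string occurred 2 times in the Mest window, 3 times in that of Zdbf2, 2 times in that of Nap1l5 and 1 time in that of Snrpn, and not in those of Zrsr1 and Kcnq1ot1. Of 32851 such windows in the RefSeq table, 11.6% held it at least once, 1.53% at least 2 times and 0.234% at least 3 times. Windows were at hand for 33 of the 43 genes, and 14 of their 52 windows (26.9%) held it. A match is a description of the letters and not a bound site.

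By the authors' means, promoter sites of the listed imprinted genes were more often higher in DKO than promoter sites in general. These genes were chosen with earlier results of these data known. A further list of imprinted genes, given at the end, did not show this. Of its 37 promoter sites, 5.41% were higher and 5.41% lower, with a median difference of -0.07. Their median WT concentration was 7.07, against 6.26 for the 49 promoter sites of the listed genes, and the lists were not matched for level. Of the 49, 7 (14.3%) were past 1.5-fold and higher in DKO, against 3.69% of all 15001 sites within 1 kb of a curated TSS, and 3 (6.12%) were lower, against 4.17%. Past 2-fold, 4 (8.16%) were higher, against 0.853%, and 1 (2.04%) was lower, against 1.09%. The median difference was 0.12, against 0.01 for all promoter sites, and 31 of the 49 (63.3%) lay above 0, against 50.2%. At flank sites the shares past 1.5-fold were close to those of flanks elsewhere. Of 83, 10 (12.0%) were higher and 14 (16.9%) lower. Of the 19672 sites over 1 kb and up to 20 kb from any TSS, 9.76% were higher and 16.1% lower. Past 2-fold 3.61% were higher and 6.02% lower, against 3.39% and 5.94%. The median difference of the flank sites was 0.03, against -0.08 for all flank sites, and 51.8% lay above 0, against 41.6%.

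Weak sites pass a fold threshold more easily, so the comparison was also made within bands of concentration over both genotypes. Between 6 and 7, 2 of 11 imprinted promoter sites were higher in DKO, against 1.23% of all promoter sites in that band. Between 5 and 6 it was 1 of 13, against 5.04%, between 4 and 5 it was 1 of 4, against 10.8%, and between 3 and 4 it was 3 of 5, against 20.4%. None of the 16 sites above 7 passed in either direction. Of the 7 sites that passed, 5 thus had a concentration under 6, and 2, those of Peg13 and Zrsr1, lay between 6 and 7.

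**Figure D1:**
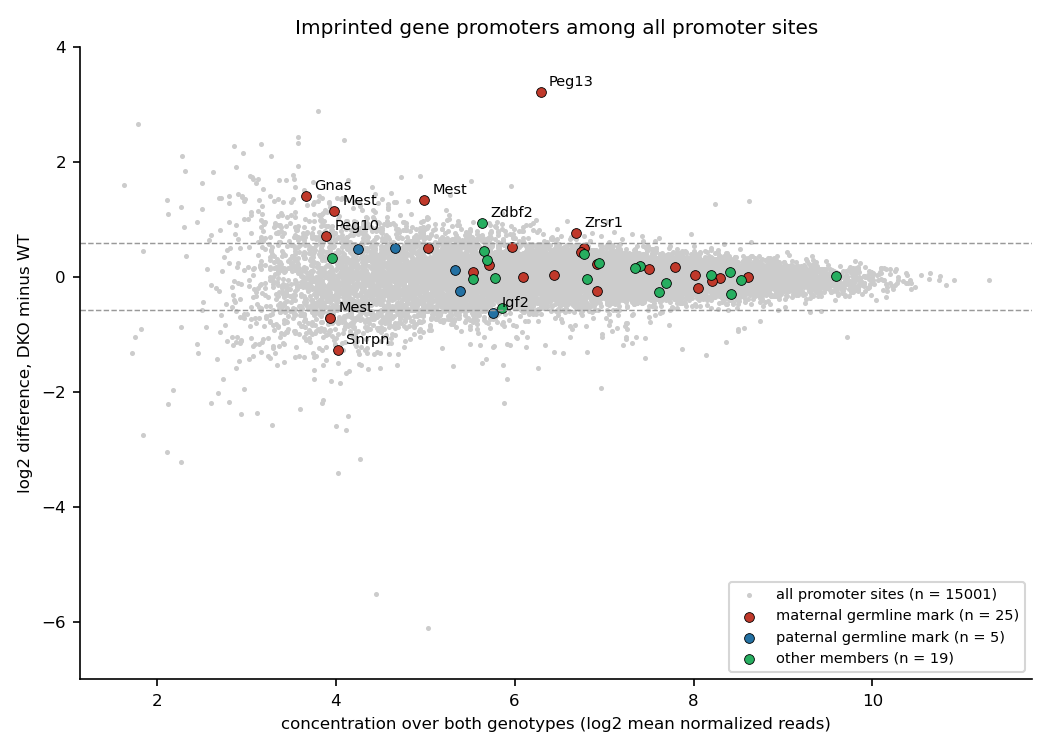
Difference between DKO and WT (y axis, log2) against the concentration over both genotypes (x axis, log2 mean normalized reads) for all 15001 promoter sites (grey) and the 49 of imprinted genes. Colours give the class of the gene: maternal germline mark, paternal germline mark or other members. Other members are host genes, neighbours and the Zdbf2 cluster, also where their cluster has a mark. Dashed lines mark 1.5-fold. Peg13 lies above all grey points at 3.21, and the imprinted sites with a concentration over 7 lie close to 0.

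Genes were grouped by the allele that carries the germline mark. Of 25 promoter sites of genes whose promoter lies in or beside a region methylated on the maternal allele, 6 (24.0%) were higher in DKO and 2 (8.0%) lower, with a median difference of 0.18. Over all promoter sites, 3.69% were higher and 4.17% lower, with a median of 0.01. The class was set per gene, so every promoter site of such a gene counts, also at starts away from its mark. The weak Gnas site 805 bp upstream of its most distal start is 1 of the 6. None of 5 sites in the clusters marked on the paternal allele (H19-Igf2 and Dlk1-Meg3) was higher and 1 was lower, with a median of 0.12. Of 19 sites of host genes, neighbours and the Zdbf2 cluster, 1 was higher and none lower, with a median of 0.03. The 1 was the upstream start of Zdbf2, which was kept with its cluster here although it lies beside a methylation mark, and the counts of the classes depend on this placement. At flank sites the median differences were 0.14 for maternally marked genes, -0.14 for the paternally marked clusters and -0.08 for the others. All flank sites had a median of -0.08.

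Peg13, a non-coding RNA made from the paternal allele inside an intron of Trappc9, had the largest increase of the 132 sites. Its promoter site (chr15:72809840-72810920) had an authors' mean concentration of 3.93 in WT and 7.14 in DKO, which corresponds to 15.2 and 141 normalized reads and a 9.25-fold difference. No other of the 15001 promoter sites had as large an increase, and it ranked 53rd among all 75880 sites. The neighbours in the domain differed by 0.10 or less: the Trappc9 promoter site (Trappc9 encodes a vesicle trafficking subunit) had 8.56 in WT and 8.51 in DKO, and that of Kcnk9, a potassium channel gene expressed from the maternal allele, 7.74 and 7.64. A flank site 16074 bp downstream of the Peg13 start was lower in DKO, at 5.74 and 4.74 (difference -1.00). From 20 to 500 kb around the cluster, 34 sites had a median difference of -0.10. Past 1.5-fold, 2 of them (5.88%) were higher and 8 (23.5%) lower, against 8.51% and 16.0% of all sites.

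Mest encodes a hydrolase-like protein and is expressed from the paternal allele, and its germline mark covers the start shown above. The site over that start (chr6:30737990-30738310) had a concentration of 4.18 in WT and 5.51 in DKO, a 2.51-fold difference (1.33), and the site 880 bp upstream had 3.29 and 4.44 (1.15). Both were higher in DKO. A further site lay 616 bp upstream of the gene's more distal start and was lower, at 4.25 and 3.53 (-0.72). Copg2, the neighbour that is transcribed towards Mest and encodes a coat protein subunit, had 7.30 and 7.49 (0.19). The 17 sites from 20 to 500 kb had a median difference of 0.05. Of these, 3 (17.6%) were higher and none lower, against 8.51% and 16.0% of all sites.

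Zdbf2, a zinc finger gene expressed from the paternal allele, has an upstream start within the Gpr1 gene, at which a long transcript begins before implantation. The site there (chr1:63199980-63200700) had a concentration of 5.10 in WT and 6.03 in DKO, a 1.91-fold difference (0.93). At the downstream start of Zdbf2 the site had 6.82 and 7.06 (0.24). Gpr1, a receptor gene, had a promoter site at 6.11 and 5.56 (-0.55) and a weaker one at 3.79 and 4.12 (0.33), so that within this cluster the upstream start of Zdbf2 alone passed 1.5-fold.

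Zrsr1 is a retrogene for a splicing factor subunit that lies in an intron of Commd1 and is expressed from the paternal allele. Its promoter site (chr11:22971750-22973070) had 6.26 in WT and 7.02 in DKO, a 1.69-fold difference (0.76), and was shared with an internal start of Commd1. The main promoter of Commd1, the host gene, had 6.55 and 6.95 (0.40). All 5 sites of the cluster lay between 0.14 and 0.76, and the 38 sites around it had a median of 0.19, so the whole neighbourhood was on the higher side in DKO.

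The remaining promoter sites past 1.5-fold and higher were weak. At Gnas, which encodes the stimulatory G protein alpha subunit and has several starts used by different alleles, a site 805 bp upstream of the most distal start (chr2:174283360-174283670) had 2.80 in WT and 4.21 in DKO (1.41). The 3 other promoter sites of Gnas differed little, at 7.43 and 7.57, 5.49 and 5.58, and 8.01 and 8.04. At Peg10, a retrotransposon-derived gene needed for the placenta, a site 914 bp into the gene (chr6:4748000-4748440) had 3.49 and 4.20 (0.71). The stronger site at the shared start of Peg10 and Sgce, the gene of a sarcoglycan, had 5.69 and 6.21 (0.52), just below 1.5-fold.

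**Figure D2:**
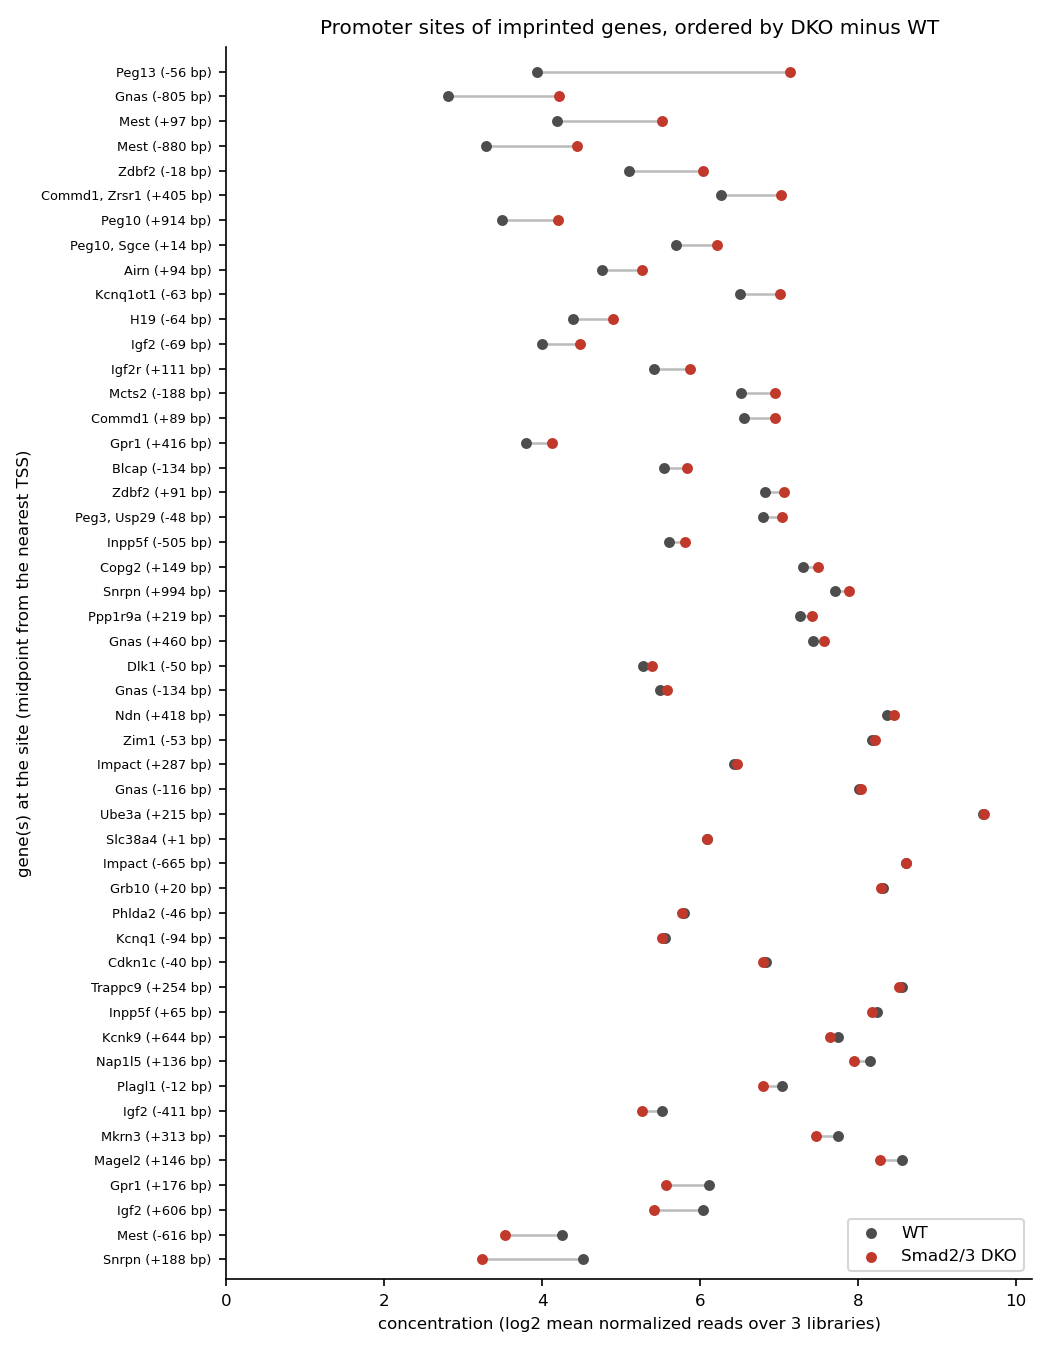
Authors' mean concentration (x axis, log2 mean normalized reads) in WT (dark) and Smad2/3 DKO (red) at each of the 49 promoter sites (y axis), ordered by the difference, with the distance from the site's midpoint to the nearest TSS. Peg13 has the widest gap, 3.93 against 7.14, and the lines shorten to 0 in the middle of the plot.

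Several other promoters in clusters with a maternal germline mark had differences between 0.21 and 0.51, below 1.5-fold. Kcnq1ot1, the RNA that silences its cluster in cis, had 6.50 in WT and 7.01 in DKO (0.51). Airn, the antisense RNA that silences Igf2r on the paternal allele, had 4.75 and 5.26 (0.51), and the promoter of Igf2r itself, the receptor that clears Igf2, had 5.42 and 5.87 (0.45). Mcts2, a retrogene inside H13, had 6.51 and 6.94 (0.43). Peg3 and Usp29 share a start, where the site had 6.80 and 7.03 (0.23), and the Inpp5f phosphatase gene had 5.60 and 5.81 (0.21) at its internal, paternally expressed start and 8.24 and 8.17 at its main one.

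Differences at the strongest promoter site of the other genes in this class ran from -0.25 to 0.18. Snrpn, a splicing protein gene whose start is the imprinting centre of its cluster, had 7.70 in WT and 7.88 in DKO (0.18). Grb10, an adaptor that limits growth, had 8.31 and 8.29 at its main promoter, which lies apart from its germline mark, Slc38a4, an amino acid transporter gene, 6.09 in both, and Impact, a translation regulator gene, 8.61 and 8.60. The differences at these 4 genes were 0.18 or less. Plagl1, a zinc finger regulator of growth, was lower in DKO at 7.04 and 6.79 (-0.25), as was Nap1l5, a nucleosome assembly protein gene, at 8.15 and 7.95 (-0.20). At concentrations of 8 to 9, the central 95% of all promoter sites lay between -0.35 and 0.31.

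At Peg3, Grb10 and Meg3 a wide site close to a start had its midpoint beyond 1 kb and therefore counted as a flank. At Peg3 and Grb10 the germline mark lies there, and at Meg3 it lies farther upstream. That of Peg3 (chr7:6727110-6729900), a zinc finger gene, had 9.52 in WT and 9.84 in DKO (0.32), at percentile 99.3 of the 765 sites in its concentration band. The site at the downstream start of Grb10 (chr11:12025460-12027130) had 8.16 and 8.52 (0.36), at percentile 97.8 of 2954, and that past the Meg3 start (chr12:109541900-109543740) had 7.65 and 7.63. At Nnat, a membrane protein gene within Blcap, a site 1382 bp past the start had 5.24 and 5.56 (0.32), and the Blcap promoter 5.54 and 5.83 (0.29).

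The clusters marked on the paternal allele gave no promoter past 1.5-fold and higher. H19, a non-coding RNA expressed from the maternal allele, had 4.39 in WT and 4.89 in DKO (0.50). Igf2, the growth factor gene expressed from the paternal allele, had 3 promoter sites that went different ways, with differences of 0.49, -0.25 and -0.63, and the strongest of them (chr7:142660140-142661190) was past 1.5-fold and lower, at 6.04 and 5.41. It also overlaps the antisense gene Igf2os. Dlk1, a Notch ligand homologue, had 5.27 and 5.39 (0.12). Of the other 11 sites of its cluster, at Dlk1, Meg3, Rtl1, Rian and Mirg, 2 were lower, one within Meg3 at 5.21 and 4.06 (-1.15) and one within Rian at 6.07 and 5.44 (-0.63), and none was higher. Meg3 and Rian are non-coding RNAs of the maternal allele, and the 3 sites between 10 and 14 kb upstream of Meg3, the interval that holds the germline mark of the cluster, differed by -0.18, 0.35 and -0.11.

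The other neighbours, which carry no germline mark of their own, had promoter differences within 0.29 of 0. Ube3a, a ubiquitin ligase gene, had the highest promoter concentration, 9.58 in WT and 9.59 in DKO. In the same cluster, Ndn had 8.37 and 8.45, Magel2 8.56 and 8.27 (-0.29) and Mkrn3 7.74 and 7.47 (-0.27), all 3 expressed from the paternal allele. The Kcnq1 channel gene had 5.55 and 5.52, the cell cycle inhibitor Cdkn1c 6.83 and 6.79 and the placental regulator Phlda2 5.79 and 5.77. Zim1 had 8.18 and 8.21, and Ppp1r9a, a neuronal scaffold gene, 7.26 and 7.41. One upstream Snrpn start (chr7:60047530-60048050), which is used in oocytes and brain, was lower in DKO, at 4.52 and 3.24 (-1.28).

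**Figure D3:**
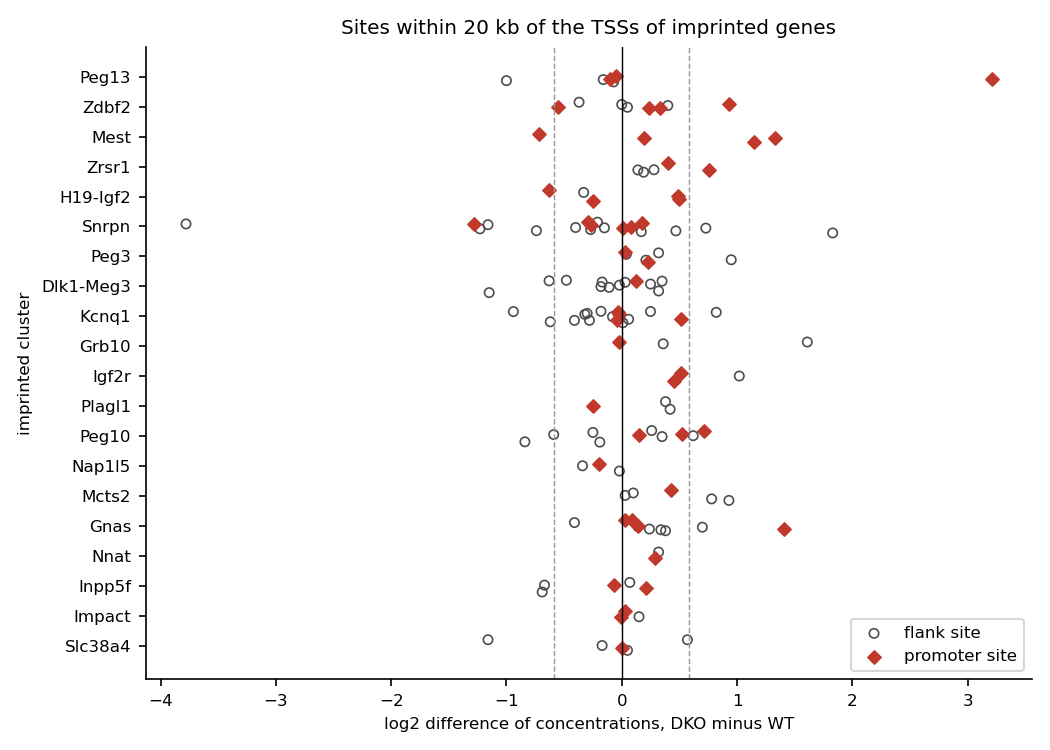
Difference between DKO and WT (x axis, log2) at the 132 sites by imprinted cluster (y axis), with promoter sites as filled diamonds and flank sites as open circles; dashed lines mark 1.5-fold in each direction. Filled diamonds lie beyond the right line in 6 clusters and beyond the left line in 3.

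By cluster, the promoter median was above 0 in 13 of 20 clusters, below 0 in 6 and at 0 in 1. Of all single promoter sites, 50.2% lay above 0. The highest cluster medians were those of Mest (0.67), Zrsr1 (0.58), Peg10 (0.52) and Igf2r (0.48), and the lowest those of Plagl1 (-0.25), Nap1l5 (-0.20) and Snrpn (-0.13). At 4 clusters (Plagl1, Nap1l5, Nnat and Impact) no site passed 1.5-fold in either direction, and the largest differences there were 0.42, -0.34, 0.32 and 0.15. The medians of the surrounding sites, from 20 to 500 kb, ran from -0.40 (Inpp5f) to 0.19 (Zrsr1), and the medians of the chromosomes that hold the clusters from -0.16 to -0.02. Past 1.5-fold, 18.4% of surrounding sites at Peg10, 18.4% at Zrsr1 and 16.7% at Grb10 were higher, and 2.63%, 2.63% and 2.38% lower. At Inpp5f and Kcnq1, 2.78% and 2.33% were higher, and 33.3% and 27.9% lower. Over all sites, 8.51% were higher and 16.0% lower.

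Flank sites past 1.5-fold were found in both directions, 12.0% higher and 16.9% lower, against 9.76% and 16.1% of all flank sites. Of the 24, 19 reached a concentration of 4 in the higher genotype, 7 higher and 12 lower in DKO. The largest increases were at weak sites: one within the single exon of Magel2 had 2.64 in WT and 4.47 in DKO (1.83), one in an intron of Grb10 2.97 and 4.58 (1.61), and one in the overlap of Airn and Igf2r 3.89 and 4.91 (1.02). Further increases lay in an intron of Kcnq1 (0.82), in H13 near Mcts2 (0.78), in Gnas at a start of its antisense RNA Gnasas1 (0.70), and 10495 bp upstream of Ppp1r9a. The last was the strongest of them, at 7.59 and 8.21 (0.62), and stood at percentile 99.2 of the 6208 sites in its band. Weaker sites near Mcts2 (0.93), Zim1 (0.95) and Snrpn (0.73) also passed.

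Decreases at flanks had their largest value in the Snrpn domain. A weak site in an intron of Snrpn and Snhg14 (chr7:60188860-60189070) had 3.68 in WT and was listed at the lowest value, -0.10, in DKO (-3.78). Another over Gm7367 (chr7:60155420-60155920) had 5.68 and 4.45 (-1.23). Next came an intron of Slc38a4 at 4.89 and 3.73 (-1.16), a weak site upstream of Mkrn3 (-1.16), and the sites of Meg3 and Peg13 given above. The other decreases were at the Rian site given above and at Cdkn1c (-0.94 and -0.62), Ppp1r9a (-0.84), Ndn (-0.74), Inpp5f (-0.69 and -0.67) and Sgce (-0.59). At Cdkn1c and Inpp5f the sites within 20 to 500 kb were also on the lower side, with medians of -0.36 and -0.40.

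**Figure D4:**
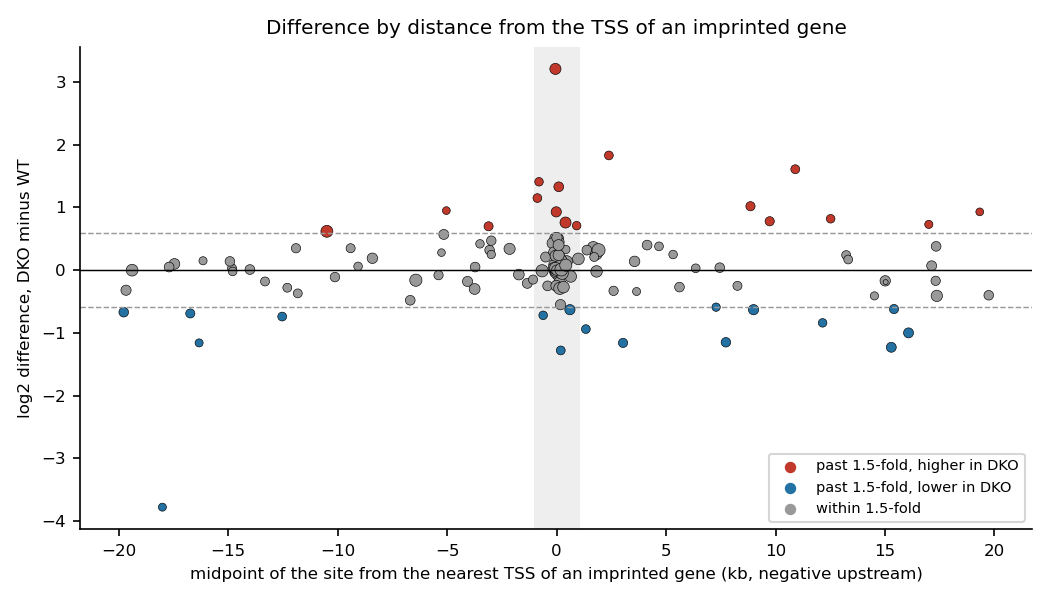
Difference between DKO and WT (y axis, log2) at the 132 sites against the distance of the midpoint from the nearest TSS of an imprinted gene (x axis, kb, negative upstream); the grey band is the 1 kb promoter window and larger points have higher concentrations. The 7 promoter sites past 1.5-fold and higher stand within the grey band, and flank sites past 1.5-fold are spread over both sides up to 20 kb.

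The sites were compared for sequence features, which were not used directly to choose them. Maternally marked genes were grouped by the kind of mark that Zfp57 protects, so TGCCGC is not independent of that class. TGCCGC was present in 16 of the 25 promoter sites of maternally marked genes (64.0%), at 2.31 per kb, against 45.3% and 0.879 per kb over all promoter sites. The site of Snrpn held 10 matches, a number reached by 0.18% of all promoter sites of like width, Nap1l5 held 5 (0.627%), and Mest (4, 0.204%), Plagl1 (4, 1.18%), Mcts2 (3, 2.99%), the internal start of Inpp5f (3, 3.28%), Zdbf2 (3, 4.31%), Impact (5, 4.86%), Kcnk9 (6, 5.91%), Peg13 (3, 8.24%) and Grb10 (4, 10.6%) held at least 3. Zrsr1, Kcnq1ot1 and Peg10 at its weak site held none. Matches therefore occurred both at promoters higher in DKO and at those near 0: the 27 promoter sites with a match had a median difference of 0.14 and the 22 without one 0.06. GGNGGCAG, part of the string at the CTCF sites of H19, was found in 16 of the 49 promoter sites (32.7%), against 39.3% of all, on both strands, and 6 times in the wide Meg3 site, a number reached by 2.27% of flank sites of like width. The median GC content was 56.6% for promoter sites of maternally marked genes and 61.7% for all promoter sites, with 6.19 and 6.81 CpG per 100 bp.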

How the data were processed

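ATAC-seq was performed by the authors on 3 WT and 3 Smad2/3 DKO differentiations (75000 cells per reaction) and 1 control library. Per the labels and the methods, reads were aligned to mm10 with Bowtie2, duplicates were removed with SAMtools, sites were called with DANPOS2 and compared with DiffBind, whose version and normalization are not given in the sources used here. The deposited table gives, for 75880 sites, 3 columns of log2 concentrations, the authors' log2 mean of normalized reads over all libraries, WT and DKO. The 3 columns of the authors' own comparison (fold, p-value and FDR) were not used. Depth per library is unknown. No column holds a value per library, so the test planned for such values was not run.

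Sites were assigned by midpoint to 31603 curated TSSs (NM and NR) of 26180 genes from RefSeq GRCm38.p6, the same build, and to a member within 20 kb. A site near several members was counted once, for the nearest. Percentiles are of the difference among all sites in the same band, 1 unit of concentration wide. Windows for sequence are from the RefSeq promoter table, and matches were counted on both strands. Named were each member's strongest promoter site, flank sites past 1.5-fold with a concentration of at least 4, the largest difference in each cluster and Smad3. Other sites and list genes were named after their values were seen. Members, classes and lists were chosen with earlier results of these data known. Alternatives were other thresholds, windows, centring, predicted TSSs and leaving out each cluster. The code was tested on simulated data. Python 3.11.15, numpy 2.4.6, pandas 2.3.3 and matplotlib 3.10.9 were used.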

Additional observations from a re-analysis of the deposited data

How the results depend on the processing

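Of 198 values recomputed for 7 results, 190 stayed within 1.5 times the count or within the interval that the number of sites gives, and 8 moved. At a 2-fold threshold, member sites higher and lower in DKO numbered 7 and 6 (17 and 17 at 1.5-fold), and the shares of flank sites were 3.61% and 6.02%. Within 50 kb, 27 sites were higher and 29 lower, and within 10 kb 8 were lower. Centred on the chromosome median, the promoter median was 0.25. The medians of these chromosomes ran from -0.16 to -0.02, so centring raises all promoter sites there. The median of all promoter sites was not recomputed in this way. The direction of the promoter median was the same under each alternative, and the flank median was -0.03 within 50 kb against 0.03. With each cluster left out in turn, sites higher in DKO numbered 15 to 17, sites lower 12 to 17, promoter shares higher 11.1% to 16.3%, promoter medians 0.08 to 0.15, flank shares higher 10.1% to 13.9% and lower 14.1% to 18.2%, and flank medians 0.00 to 0.05. Taking a promoter by the nearest edge of the site, an alternative chosen after seeing the data, gave 13.2% higher. No paired analysis was possible because the table holds 1 mean per genotype. A concentration of 4 is a mean of 16 normalized reads, and below it a 1.5-fold difference rests on few reads. Without values per library, counting error and the spread between differentiations could not be separated from any difference.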

Other observations

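A further list of 39 symbols of genes that have been described as imprinted in some tissue was also read, and 37 of the symbols matched a curated TSS. A symbol without a match can be an older name, such as Eif2c2 for Ago2, which was also listed. Their 37 promoter sites had a median difference of -0.07, and 2 (5.41%) were higher and 2 (5.41%) lower past 1.5-fold, against 3.69% and 4.17% of all promoter sites. Higher in DKO were a weak site of Slc22a3, an organic cation transporter gene, at authors' mean concentrations of 2.26 in WT and 3.21 in DKO (0.95), and one of 2 sites of Jade1, at 6.44 and 7.20 (0.76). Lower were Dcn, a matrix proteoglycan gene, at 8.36 and 7.11 (-1.25), and Ano1, a chloride channel gene, at 5.45 and 4.76 (-0.69). Of their 66 flank sites, 10 (15.2%) were higher and 10 (15.2%) lower, against 9.76% and 16.1% of all flank sites. 2 of these promoter sites and some flank sites are also counted above, since the clusters adjoin.

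Genes for factors that maintain imprints were also read. The 11 promoter sites of 10 of the 11 genes, among them Zfp57 (7.44 in WT and 7.34 in DKO), Zfp445 (6.73 and 6.36), Trim28 (9.10 and 9.41), Dnmt1 (6.68 and 6.91) and Uhrf1 (6.78 and 6.63 at its stronger site), included none past 1.5-fold, and their median difference was -0.06. At the flanks, 26 of 32 sites (81.2%) lay above 0 with a median of 0.23, against 41.6% and -0.08 for all flank sites, and past 1.5-fold 4 (12.5%) were higher and none lower, against 9.76% and 16.1%: near Arid4a (3.43 and 4.63), Zfp42 (2.99 and 3.97), Dppa3 (2.87 and 3.68) and Trim28 (4.80 and 5.60). The Zfp42 site is also counted among the flanks of naive genes.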
